A study of Mus musculus with 2 samples.

Results

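Nucleolar genes of ribosome biogenesis were examined in CD34-positive epithelial cells sorted from skin tumours of a wild-type mouse and of a K14CreER:Rosa-VEGF-164 mouse. The set is a list of 43 genes that encode RNA polymerase I subunits and factors, nucleolar chaperones, small nucleolar ribonucleoprotein (snoRNP) components and assembly factors of both ribosomal subunits. A gene was measured through every array probe set that the platform annotation assigns to it and to no other gene. By that rule 42 of the 43 genes had 92 probe sets, out of 18194 genes and 34958 probe sets in all. Npm3 was not measured, because the annotation gives it no probe set unique to it.

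Ribosomes are built in the nucleolus. RNA polymerase I copies the ribosomal DNA into a long precursor, which snoRNPs modify and guide through cleavage while large protein assemblies fold it into the precursors of the small and large subunits. Output of the pathway is coupled to growth and proliferation, and enlarged nucleoli have long been used as a histological sign of fast-growing tumours.

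There was 1 Affymetrix 3′ expression array per genotype, so each value below is a single measurement with no replicate error, no test and no p-value. Both mice had received DMBA, a carcinogen, at postnatal days 23, 25 and 27, repeated applications of the tumour promoter TPA, and DMBA again at 7 weeks of age. The wild-type mouse is the control. The other carries a VEGF-164 transgene in the Rosa locus and a CreER recombinase driven by the keratin 14 promoter, which is active in basal epidermis. Living tumour cells were stained for CD34, alpha6-integrin and Epcam, and in a separate shared colour for the blood, endothelial and fibroblast markers CD45, CD31 and CD140a, before sorting. How the recombinase was induced is not stated in the sources used here. The question is which transcripts differ in these tumour cells when VEGF is gained.

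Values are anti-logged signals, and each log2 ratio has the transgenic mouse's array, called the VEGF array, as numerator and the wild-type array as denominator. A signal was taken as above background when it exceeded 19.9 (wild-type array) or 11.3 (VEGF array), the 90th percentile of 80 probe sets of odorant and pheromone receptor genes. A gene is represented by its brightest probe set. The error available comes from how far the 2 brightest probe sets of a gene disagree, an SD of 0.42 on the log2 scale at middle and 0.32 at high signal, and it leaves out the spread between animals and sorts. Of the 42 genes, 41 were above background on both arrays, 29 of them at high and 12 at middle signal, and Rrp9 passed background on the VEGF array alone.

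All 7 basal keratinocyte and sort markers (Krt5, Krt14, Trp63, Itga6, Col17a1, Epcam and Cd34) were above background on both arrays. Pairs of values give wild type first and VEGF second, as they do throughout. Trp63 (2706 and 1587, log2 ratio -0.77) and Itga6 (3952 and 2421, -0.71) were lower on the VEGF array. Cd34 (430 and 751, 0.80) and Epcam (1597 and 1905, 0.25) were higher there. Krt5 (8352 and 7875, -0.08), Krt14 (8990 and 8571, -0.07) and Col17a1 (3849 and 3943, 0.03) were nearly equal. Markers of other cell types follow. Of 12 immune markers, 7 and 5 were above background, with summed signals of 308 and 247. The counts were 3 and 6 of 8 for endothelial markers (summed signal 145 and 183), 4 and 5 of 6 for melanocyte (391 and 188), 3 and 2 of 5 for muscle (152 and 64.1), 0 and 0 of 2 for red blood cell (12.9 and 5.26) and 8 and 9 of 9 for fibroblast markers (1262 and 2750). The background is lower on the VEGF array, so a marker can pass there at a lower signal, as the melanocyte marker Mlana did (18.2 and 15.3). No marker was at 0. Of the genes for the shared-colour markers, Ptprc (CD45) stood at 14.4 and 17.3 and Pdgfra (CD140a) at 9.86 and 34.7, while Pecam1 (CD31) was 3.07 in wild type and at least 0.15 higher on the log2 scale in VEGF. The fibroblast sum was higher on the VEGF array through Col3a1 (489.9 and 1235), Col1a2 (324 and 942) and Col1a1 (135 and 236), while Dcn (91.3 and 72.3) and Thy1 (58.1 and 25.1) were lower there. The 24 probe sets of the bacterial dap, lys, phe and thr spike-ins were all lower in VEGF than in wild type, by a median log2 ratio of -0.90, and the 18 hybridisation controls had a median of -0.50. The beta-actin probe set at the 3′ end exceeded the one at the 5′ end by 1.01 on the log2 scale on the wild-type array and by 0.54 on the VEGF array. The part of these differences in the results below was not tested.

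The nucleolar genes were modestly and broadly higher on the VEGF array. They were chosen with earlier results of these data known, so the counts below describe the list and are not an independent finding. In RNA from a bulk sort, a different share of expressing cells and a different amount of RNA per cell cannot be told apart. Of the 42 genes, 39 had a log2 ratio above 0, where 47.1% of the 12195 genes with a fold or a bound did, and 55.5% of the 6847 genes whose mean signal lay in the range of the nucleolar genes. Their median log2 ratio was 0.35, with quartiles of 0.16 and 0.52, against a median of -0.04 over all genes and of 0.06 over genes in the same signal range. The SD of the ratios was 0.31 across the 41 nucleolar genes above background on both arrays and 0.56 across genes in the same signal range. The differences were small: 0 of the 41 genes with a measured fold were 2-fold apart, where 3.87% of all genes were higher by that much and 8.54% lower (3.58% and 3.46% in the same signal range). At the smaller size of 1.5-fold, 9 were higher (11.6% of all genes, 12.2% in the same signal range) and 1 was lower (20.0% and 9.46%). The ratio was larger than 1 SD of a single probe set for 24 higher and 2 lower genes, and larger than 2 SD for 3. The share of all genes that passed these sizes was not counted, and ratios in the same signal range had an SD of 0.56. These counts, and those by role below, only set each ratio against its error and do not mark out the nucleolar genes.

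**Figure D1:**
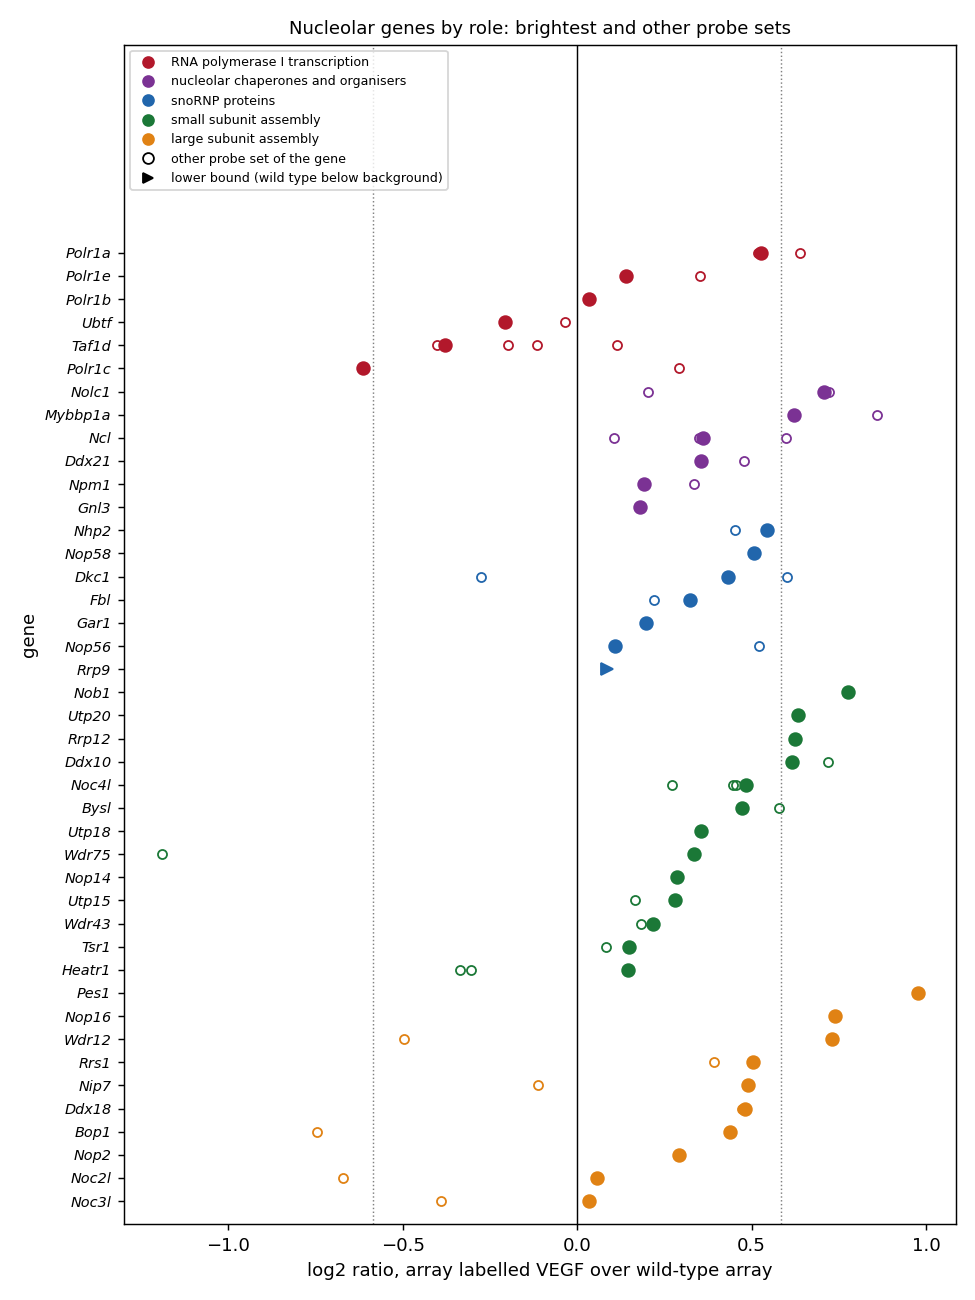
Log2 ratio of VEGF to wild type (horizontal axis) for each of the 42 measured nucleolar genes (vertical axis), coloured by role. Filled points are the brightest probe set, open points the gene's other probe sets, where above background in both, the triangle is the lower bound for Rrp9, and dotted lines mark 1.5-fold. Filled points lie above 0 for 39 genes, and the 3 below 0 (Ubtf, Taf1d and Polr1c) are all in the RNA polymerase I group.

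The 3 genes with a ratio below 0 all belonged to the 6 genes of RNA polymerase I transcription. That group had a median of -0.09 as deposited. It was 0.16 without probe sets ending in _x_at or _s_at, which may read more than 1 transcript. With an offset of 50 and no rescaling, an alternative added after seeing the data, the median was -0.08. With the offset fixed in the design it was 0.24. There the array medians (22.6 and 17.3) were first matched by multiplication, which raises VEGF signals against wild type and undoes part of the deposited scaling. All 36 measured genes of the other roles were above 0, with a median of 0.40, and 31 of the 36 were with the median over probe sets. The 36 include Rrp9 at its bound, which could only be above 0. Polr1a, which encodes the largest catalytic subunit, had a signal of 111 in wild type and 160.5 in VEGF, a log2 ratio of 0.53. Its other probe sets above background gave 0.52 and 0.64. Polr1b, the next largest subunit, was nearly equal at 142 and 145 (0.03). Polr1e, a subunit of the enzyme's initiation and elongation module, had signals of 136 and 149 (0.14), and 0.35 by its other probe set. Of the 6, only Polr1a exceeded the SD of a single probe set in the higher direction.

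Polr1c, a subunit shared with RNA polymerase III, had the lowest ratio of all nucleolar genes, 1.53-fold lower at 520 and 339.6 (log2 ratio -0.61). The other Polr1c probe set gave 0.29, so the direction for this gene is not settled. Ubtf, which encodes the upstream binding factor that opens ribosomal DNA chromatin, had signals of 476 and 413 (-0.21), with -0.04 by its other probe set. Taf1d, a subunit of the promoter selectivity factor SL1, had signals of 284 and 219 (-0.38), and its other 4 probe sets above background ranged from -0.40 to 0.12. Both Ubtf and Taf1d were below 0 as deposited and with the added offset of 50 and no rescaling (-0.19 and -0.32). They were above 0 with the offset fixed in the design, where the array medians were first matched (0.17 and 0.01).

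Chaperones and organisers of the nucleolus were higher in 6 of 6 measured genes, with a median of 0.36. Nolc1, a phosphoprotein that binds snoRNPs and RNA polymerase I, had the largest ratio of the group at 342 and 559 (0.71, 1.63-fold). Its other 2 probe sets gave 0.20 and 0.72. Mybbp1a, a nucleolar Myb-binding protein, followed at 1159 and 1784 (0.62), and its second probe set gave 0.86. Ncl encodes nucleolin, an abundant RNA-binding protein of the nucleolus, and had signals of 2918 and 3743 (0.36). All 3 other Ncl probe sets above background were also above 0, between 0.11 and 0.60. Ddx21, an RNA helicase that couples RNA polymerase I activity to processing, had signals of 334 and 427 (0.36). Npm1, the histone chaperone nucleophosmin, had signals of 5395 and 6161 (0.19, and 0.33 by its other probe set), and as Npm1 has processed pseudogenes, its probe sets may also read near-identical copies. Gnl3, the nucleolar GTPase nucleostemin, had signals of 656 and 742 (0.18). The last 2 ratios were smaller than the SD of a single probe set.

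The snoRNP proteins were above 0 in 7 of 7 genes, with a median of 0.32, counting Rrp9 at a bound that could only be above 0. None of the 6 with a measured fold was as far apart as 1.5-fold. Box C/D particles, which methylate ribosomal RNA, share the methyltransferase fibrillarin and the paired scaffold proteins Nop56 and Nop58. Fbl, the fibrillarin gene, had signals of 1456 and 1824 (0.32, and 0.22 by its other probe set). Nop58 had signals of 913 and 1298 (0.51). Nop56 differed less by its brightest probe set (1068 and 1150.0, 0.11) than by its other one (0.52). Rrp9, which encodes a protein specific to the U3 particle, did not pass background in wild type (13.2) but did in VEGF (21.1), at least 1.06-fold higher. With no background floor its log2 ratio was 0.67, and the count of nucleolar genes at least 1.5-fold higher was 10.

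Box H/ACA particles convert uridines of ribosomal RNA to pseudouridine. Their catalytic subunit dyskerin is encoded by Dkc1, with signals of 898 and 1212 (0.43). Its other 2 probe sets differed in sign, at 0.60 and -0.28. Nhp2, an RNA-binding core protein, had signals of 1525 and 2222 (0.54, with 0.45 by its other probe set). Gar1, which helps release the substrate, had signals of 694 and 795 (0.20). Of the 7 snoRNP genes, 4 (Fbl, Nop58, Dkc1 and Nhp2) exceeded the SD of a single probe set.

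**Figure D2:**
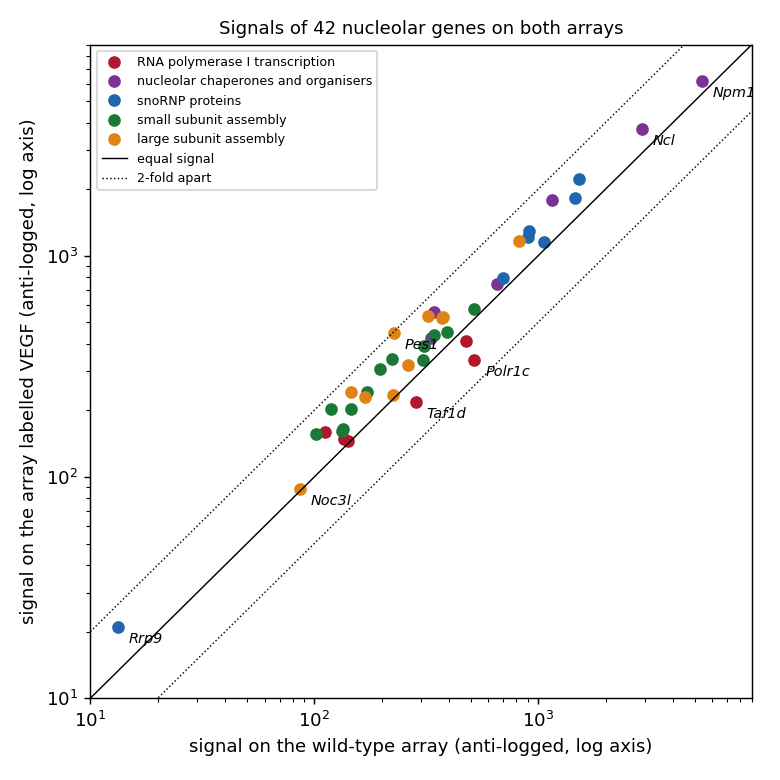
Anti-logged signal of each of the 42 nucleolar genes in wild type (horizontal, log axis) and VEGF (vertical, log axis), coloured by role, with the line of equal signal and dotted lines at 2-fold. Most points lie just above the line of equal signal and none lies beyond the 2-fold lines, from Rrp9 at 13.2 and 21.1 to Npm1 at 5395 and 6161.

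Assembly factors of the small subunit were above 0 in 13 of 13 genes, with a median of 0.35, and 4 of them were at least 1.5-fold higher. Nob1, the endonuclease that makes the final cut at the end of 18S ribosomal RNA, led with 119 and 204 (0.77, 1.71-fold). Utp20, a large scaffold protein of the small subunit processome, had signals of 198 and 306 (0.63). Rrp12, an export factor of pre-ribosomes, had signals of 101 and 156 (0.63). Ddx10, a helicase of early cleavage, had signals of 223 and 341 (0.62, and 0.72 by its other probe set). These 4 genes span early, late and export steps.

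Noc4l, a partner of Nop14 in the processome, had signals of 172 and 241 (0.48), with the 3 further probe sets at 0.27 to 0.46. Bysl, which encodes bystin of late pre-40S particles, had signals of 146 and 203 (0.47), and 0.58 by its second probe set. Both genes were therefore higher by every probe set above background. Utp18 (344 and 440.0, 0.35), Wdr75 (309 and 389.8, 0.34), Utp15 (133 and 162, 0.28) and Wdr43 (390.0 and 453, 0.22) encode subunits of the processome, the last 3 in a subcomplex that also bears on ribosomal DNA transcription. The dimmer Wdr75 probe set went the other way by a wide margin (-1.19). Nop14, another processome protein, had signals of 135 and 165 (0.29). Tsr1, a GTPase-like factor of late pre-40S particles, had signals of 516 and 573 (0.15). Heatr1, a large processome scaffold, had signals of 307 and 339 (0.15), but -0.31 and -0.33 by its 2 dimmer probe sets. Of the 13 genes, 8 exceeded the SD of a single probe set, and Nop14, Utp15, Wdr43, Tsr1 and Heatr1 did not.

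Assembly factors of the large subunit had a median of 0.49, with 10 of 10 genes above 0 and 3 at least 1.5-fold higher. With the median over probe sets the group stood at 0.24 with 7 of 10 above 0, while the small subunit group stood at 0.35 with 11 of 13, the chaperones at 0.39 with 6 of 6 and the snoRNP proteins at 0.31 with 7 of 7. The PeBoW complex of Pes1, Bop1 and Wdr12, needed for processing of the large subunit RNAs, held the largest ratio of all nucleolar genes. Pes1 had signals of 227 and 447, a log2 ratio of 0.98 or 1.97-fold, 3.03 times the SD of a single probe set. Wdr12 had signals of 146 and 241 (0.73), while its other probe set above background gave -0.50. Bop1 had signals of 169 and 229 (0.44), while its other probe set gave -0.75. The second Pes1 probe set was too dim for a fold, so Pes1 rests on 1 probe set.

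Nop16, a nucleolar protein of early pre-60S particles, had signals of 322 and 537 (0.74, 1.67-fold). Rrs1, needed to bring in the 5S ribonucleoprotein, had signals of 822 and 1166 (0.51), and 0.39 by its other probe set. Nip7 had signals of 374 and 525 (0.49) and Ddx18, an RNA helicase, 377 and 527 (0.48, with 0.47 by its other probe set). Nip7 acts in pre-60S maturation, and its dimmer probe set gave -0.11. Nop2, an RNA methyltransferase of the large subunit RNA, had signals of 263 and 322 (0.29). Noc2l (226 and 235, 0.06) and Noc3l (86.3 and 88.4, 0.03), which travel with pre-60S particles, were nearly equal, and their other probe sets gave -0.67 and -0.39.

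The probe sets of a gene did not always go the same way. Among the 92 probe sets, 81 were above background on both arrays, and 65 of these had a ratio above 0, where 44.5% of the 19376 named probe sets above background on both arrays did. Leaving aside the brightest probe set of each gene, 27 of 40 were above 0, with a median of 0.25. In 29 genes at least 1 further probe set passed background on both: for 19 all went the same way as the brightest, and for 10 (Polr1c, Taf1d, Dkc1, Wdr75, Heatr1, Wdr12, Bop1, Nip7, Noc2l and Noc3l) at least 1 did not. The share of all genes with such disagreement was not counted. Another 10 genes had a single probe set. For 8 genes (Polr1c, Polr1e, Taf1d, Fbl, Nhp2, Gar1, Rrs1 and Tsr1) the brightest probe set ends in _x_at or _s_at, and Gar1 and Tsr1 have no other kind. Using the median of all probe sets of a gene left 34 of 42 genes above 0, with a median of 0.29.

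Promoter sequences show a feature that the choice of genes did not use. RefSeq windows on GRCm38.p6, from 250 bases before to 50 after the annotated start, were found for 38 of the 43 genes, and not for Npm1, Fbl, Bop1, Rrs1 and Rrp12. The E-box CACGTG, a palindrome that Myc with Max and other factors of the same class can bind, stood in the windows of 7 of these 38 genes (18.4%), against 8.91% of 17492 protein-coding genes and 7.15% of all 32851 windows. The 7 stretches are printed because they include Pes1, Utp20 and Mybbp1a, which were at least 1.5-fold higher. Each is given 5′ to 3′ on the strand of the gene, with the E-box in capitals.
Pes1 (chr11:3963965-3963994, + strand): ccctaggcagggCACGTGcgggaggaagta
Mybbp1a (chr11:72441355-72441376, + strand): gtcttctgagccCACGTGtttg
Utp20 (chr10:88826765-88826789, - strand): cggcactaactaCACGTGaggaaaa
Utp18 (chr11:93885767-93885826, - strand): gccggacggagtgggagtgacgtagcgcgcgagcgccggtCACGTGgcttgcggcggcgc
Nop2 (chr6:125131783-125131868, + strand): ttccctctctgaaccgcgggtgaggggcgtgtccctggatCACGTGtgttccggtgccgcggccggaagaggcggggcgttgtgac
Wdr43 (chr17:71616220-71616249, + strand): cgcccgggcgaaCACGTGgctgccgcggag
Tsr1 (chr11:74898092-74898121, + strand): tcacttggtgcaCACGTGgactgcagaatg
The E-box began 60 bases before the start in Nop2 and 20 bases before it in Utp18, and lay within the first 50 transcribed bases in the other 5.

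The 7 genes with an E-box had a median log2 ratio of 0.35, between 0.15 (Tsr1) and 0.98 (Pes1), and the 30 measured genes without one in this window had a median of 0.35, between -0.61 and 0.77, so the ranges overlapped and the medians were alike. Another 3 letter strings, each searched on both strands, were counted in the same windows. CCGGAA, the core of sites for ETS factors, stood in 47.4% of the 38 genes and 20.9% of protein-coding genes. GGGCGG, the core of sites for Sp1, stood in 81.6% and 49.2%, and CCAAT in 34.2% and 42.3%. The windows of the nucleolar genes had a median G and C content of 59.7%, against 56.3% for protein-coding genes. A match is a string of letters and not evidence of binding, and a string missing from the window says nothing about the rest of the gene.

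Some nucleolar genes also host genes for small nucleolar RNAs. In the RefSeq gene table, without regard to strand, 8 of the 43 genes (18.6%) had at least 1 snoRNA gene inside their span, against 1.89% of 16474 protein-coding genes on the array. They were Taf1d with 6, Nop56 with 5, Nop58 with 4, Gnl3 and Wdr43 with 3 each, Ncl with 2, and Dkc1 and Tsr1 with 1 each. The 8 had a median log2 ratio of 0.20 and the 34 other measured genes one of 0.40. The arrays read the host messages and not the snoRNAs.

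Other genes of the pathway, in lists also chosen with earlier results of these data known, had a median close to that of the 43. Of 115 such genes, 113 had a probe set and 112 a fold or a bound. Among the 112, 99 were above 0 with a median of 0.37, 23 (20.5%) were higher by 1.5-fold or more and 2 lower. Shq1 is among the 99 at a bound that could only be above 0. At 2-fold, 3 were higher and 1 lower. The 3 were the processome genes Pwp2 (84.6 and 183, 2.16-fold) and Wdr36 (294 and 596, 2.03-fold, with the same ratio by its other probe set), and Shq1, an assembly factor of H/ACA particles, which did not pass background in wild type (17.3 and 60.7, a log2 ratio of at least 1.61). The one lower was the helicase gene Dhx37 at low signal (25.1 and 12.4, 2.03-fold lower).

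**Figure D3:**
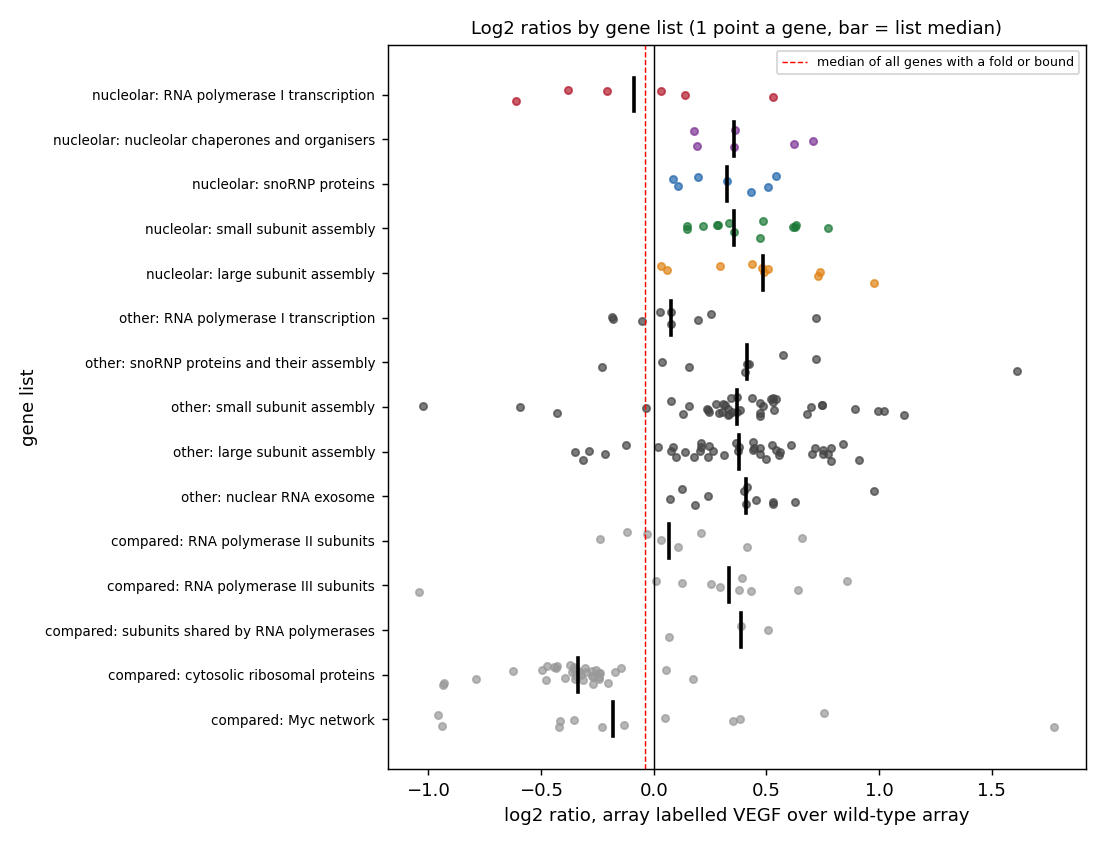
Log2 ratio of VEGF to wild type (horizontal axis) for the genes of each list (vertical axis). Each point is 1 gene (Rrp9 and Shq1 at their bounds), black bars are list medians, the dashed line is the median of all genes (-0.04), colours mark the 5 roles of the nucleolar genes, dark grey other pathway genes and light grey compared lists. The medians of the 4 assembly, snoRNP and chaperone roles lie between 0.32 and 0.49, that of the RNA polymerase I genes at -0.09 and that of cytosolic ribosomal proteins at -0.34 on the deposited scale. Both of the last 2 were above 0 with an offset of 50 after matching the medians (0.24 and 0.05), and not with the offset alone (-0.08 and -0.33).

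By role, the RNA polymerase I genes again had the lowest median. The 9 further RNA polymerase I genes were at 0.08, with 6 above 0. Rrn3, the initiation factor that links the polymerase to growth signals, was the highest of them at 172 and 284 (0.72, 1.65-fold), followed by Polr1d (2038 and 2432, 0.26) and Cd3eap, the older name of Polr1g (118 and 135, 0.20). Taf1b, of SL1, at 74.3 and 65.4 (-0.18), the termination factor gene Ttf1 at 54.1 and 47.8 (-0.18) and Twistnb, the older name of Polr1f, at 456 and 439.8 (-0.05) were the lowest. By the brightest probe set, these 6 differences, apart from Rrn3, were smaller than the SD of a single probe set. Other probe sets gave 0.18 to 0.60 for Polr1d, -0.38 for Ttf1 and -0.10 to 0.18 for Twistnb.

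The other 41 small subunit genes had a median of 0.37, with 37 above 0. Ddx47, a helicase gene, at 163 and 325 (0.99) stood next to Pwp2 and Wdr36 at the top, and Nol10 (97.0 and 64.2, -0.59) and Nol6 (107 and 79.3, -0.43, and -0.60 by its other probe set) stood above Dhx37 at the bottom. The 41 large subunit genes had a median of 0.38, with 36 above 0. Eif6, which keeps the immature large subunit from joining the small one, was highest at 927 and 1743 (0.91, and 0.40 by its other probe set), followed by Ftsj3 (102 and 182, 0.84) and Rrp15 (189 and 325, 0.79). The lowest were Nop53 (2627 and 2061, -0.35), Nsa2 (2070 and 1666, -0.31) and Ddx31 (76.0 and 62.2, -0.29). Other probe sets gave -1.43 and -0.07 for Nop53, -0.26 for Nsa2 and 0.24 for Ddx31. With the median over probe sets 31 of the 41 large subunit genes were above 0, with a median of 0.22, and 34 of the 41 small subunit genes, with a median of 0.33.

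Of the 9 other snoRNP and snoRNP assembly genes with a value, 8 were above 0, Shq1 among them at its bound, with a median of 0.41. The highest with a measured ratio were Znhit3 (117 and 192, 0.72), the ATPase gene Ruvbl1 (206 and 307, 0.57) and Znhit6 (215 and 287, 0.42). Pih1d1, a subunit of the R2TP chaperone complex, was the only one below 0 (203 and 173, -0.23). Its other probe sets gave -0.82 and -0.46. Nop10 (1811 and 1857, 0.04, and 0.37 by its other probe set) and Ruvbl2 (264 and 295, 0.16) differed little. The nuclear RNA exosome, which trims the precursors, was above 0 in 12 of 12 genes with a value, with a median of 0.41. Exosc3 (63.1 and 124, 0.98), Exosc9 (227 and 350.5, 0.63) and Exosc8 (394 and 569, 0.53, but -0.27 by its other probe set) were highest, and Exosc5 (195 and 205, 0.07), Exosc10 (214 and 234, 0.13) and Exosc4 (159 and 181, 0.18) lowest. The other probe sets of Exosc10 ran from -0.28 to 0.46 and those of Exosc4 from -0.41 to 0.33. With the median over probe sets 11 of 12 exosome genes were above 0, with a median of 0.29.

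**Figure D4:**
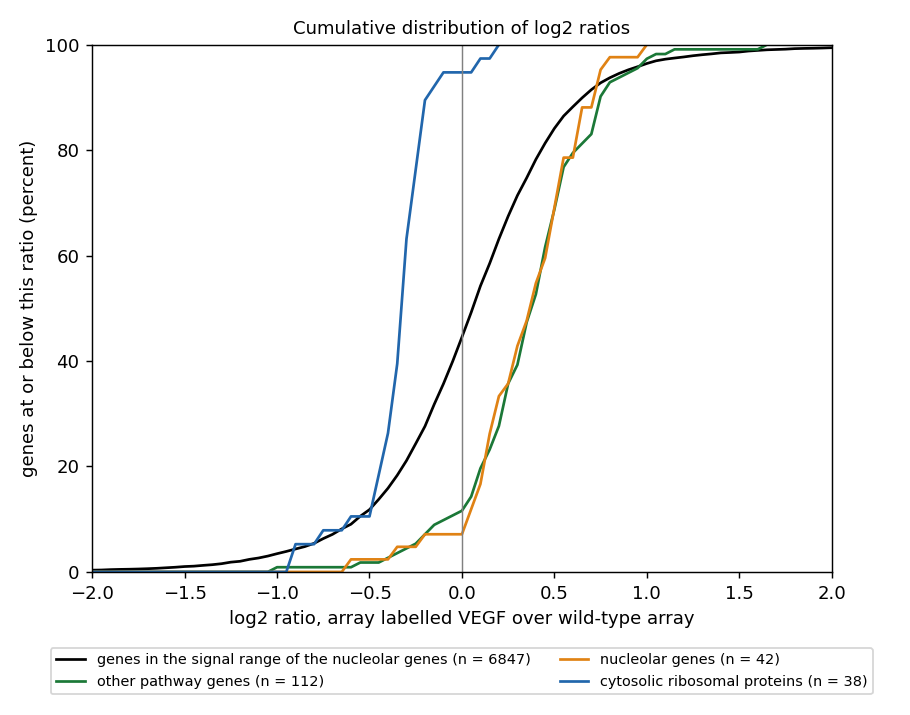
Percent of genes (vertical axis) with a log2 ratio of VEGF to wild type, at or below the value on the horizontal axis. The curves of the 42 nucleolar genes and of the 112 other pathway genes run close together and to the right of the 6847 genes in the same signal range, with medians of 0.35, 0.37 and 0.06, and the 38 cytosolic ribosomal protein genes lie to the left, with a median of -0.34 that was -0.02 after quantile normalization.

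The products that these factors assemble did not show the same values. Of 38 genes of cytosolic ribosomal proteins with a ratio, 36 were below 0, with a median of -0.34. The lowest was Rpl27a (299 and 156, -0.93) and the highest Rpl14 (300 and 338, 0.17). The direction held after loess normalization (median -0.18, 36 of 38 below 0). It also held with an offset of 50 and no rescaling, added after seeing the data (-0.33, 37 of 39 below 0). It did not hold in 2 alternatives fixed with the design. After quantile normalization the median was -0.02 with 15 of 38 above 0, and with the offset after matching the medians it was 0.05 with 28 of 39 above 0. The nucleolar genes had medians of 0.40 and 0.66 under the last 2 settings. Ribosomal protein genes have many processed pseudogenes, which their probe sets may also read. Most ribosomal protein genes had a mean signal above 5765, the highest of the nucleolar genes, so the 2 lists were not matched for signal. Bright 3′ control probe sets were also lower on the VEGF array, for beta-actin (11194 and 9190, -0.28) and Gapdh (6752 and 5998, -0.17). Their 5′ probe sets were higher there, for beta-actin (5567 and 6341, 0.19) and Gapdh (5891 and 6577, 0.16). The part of signal level or probe position in the ribosomal protein ratios was not tested. Rpl27a and Rpl14, at the ends of the range, were dim for their list.

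The array also carries 3 control probe sets for 18S ribosomal RNA itself, the transcript of RNA polymerase I. Their signals were 569 and 1225 at the 3′ end (log2 ratio 1.11), 1284 and 1855 in the middle (0.53) and 3247 and 4584 at the 5′ end (0.50), all higher on the VEGF array. The labelling starts from poly(A) tails, which mature ribosomal RNA lacks, so these signals are not a measure of ribosomal RNA content.

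Subunits of the other nuclear polymerases were set beside those of RNA polymerase I. The 8 RNA polymerase II subunits had a median of 0.07, between -0.24 (Polr2m, 734 and 621) and 0.66 (Polr2j, 554 and 873). The 10 measured RNA polymerase III subunits had a median of 0.34, with 9 above 0, from 0.86 for Crcp (99.5 and 180.1) down to -1.04 for Polr3gl (98.8 and 48.1, 2.06-fold lower). The 3 measured subunits shared by the polymerases were above 0, between 0.07 (Polr2f) and 0.51 (Polr2e), but the other Polr2e probe set gave -0.39, and with the median over probe sets 2 of 3 were above 0, with a median of 0.06. Myc, whose product drives many nucleolar genes, had signals of 588 and 502 (-0.23), and the 12 genes of its network had a median of -0.18, from -0.96 for Mnt (212 and 109) to 1.77 for Mxd1 (64.2 and 219.8). Mxd1 encodes a Max partner that opposes Myc, and its other 2 probe sets gave -0.23 and 0.93. Other genes of that kind were lower: Mnt (-0.19 by its other probe set), Mxi1 (-0.94), Mxd3 (-0.42) and Mxd4 (-0.35). Of all 12 genes, 5 were above 0. The list mixes genes that act with Myc and against it, so its median is not a measure of Myc activity. The median of the Myc network was 0.12 with an offset of 50 after matching the medians, and -0.13 with the offset alone. It was -0.09 with the median over probe sets, -0.12 after quantile and -0.10 after loess normalization, with 6 of 12 above 0 under each.

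Across 10 alternatives fixed with the design, between 34 and 41 of the nucleolar genes were above 0, and their median exceeded that of all genes by between 0.31 and 0.56. Scaling to the spike-ins, an alternative added after seeing the data, adds 1 constant to the log2 ratio of every gene, so it moves the level and says nothing about the position relative to other genes. With it the median of all genes went from -0.04 to 0.81 and that of the nucleolar genes to 1.26. The gap between the medians went from 0.40 to 0.44 because more genes got a value, 13117 against 12195.

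**Figure D5:**
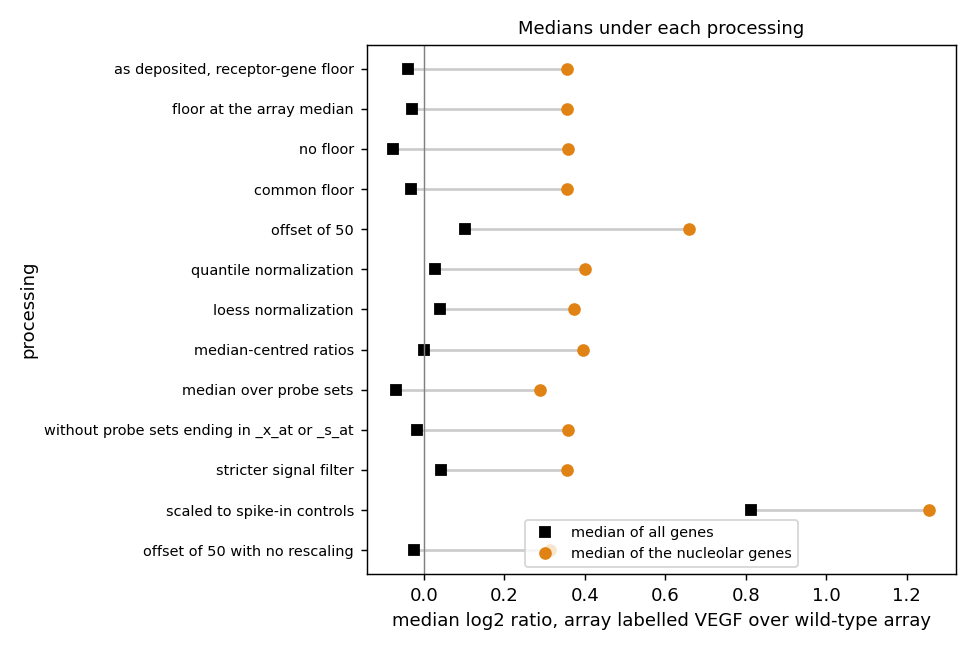
Median log2 ratio of VEGF to wild type (horizontal axis), of the nucleolar genes (circles) and of all genes (squares) under the deposited scale and each other processing (vertical axis). The circle lies to the right of the square in every row, by 0.40 as deposited and between 0.31 and 0.56 in the alternatives fixed with the design.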

How the data were processed

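The deposited values are log2 signals of 1 Affymetrix array per genotype. They come from MAS5, per the submitters' processing notes, whose version and scaling target the sources used here do not state. Total RNA (100 ng, with spike-ins added) was amplified from poly(A) tails, per the labels' protocols. The 2% trimmed mean of the anti-logged signals was 100.04 on both arrays. Of 45101 probe sets, 34958 had exactly 1 gene in the platform annotation and were used. Signals below each array's background were raised to it before the ratio was taken. A gene above background on 1 array only got a lower bound, written "at least", and bounds under 1-fold were dropped. The sign of a bound was therefore set by the array on which the gene passed. With 1 array per group no test was made, and the fixed sizes were 1.5-fold and 2-fold. The ratio code was tested on simulated data. The nucleolar genes and the lists set beside them were chosen with earlier results of these data known. Every nucleolar gene is named, and in other pathway lists the 3 highest and 3 lowest above background on both arrays. Shq1 was named after its value was seen. In the comparison lists the highest and lowest genes are named, and Myc. Older names of RNA polymerase I subunits were paired by hand. The 10 alternatives fixed with the design varied the background floor, offset (after matching array medians), normalization, probe set choice and signal filter, and 2 were added after seeing the data. Promoters and gene names came from RefSeq tables on GRCm38.p6. Python 3.11.15, pandas 2.3.3, numpy 2.4.6, statsmodels 0.14.6 and matplotlib 3.10.9 were used.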

Additional observations from a re-analysis of the deposited data

How the results depend on the processing

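Of 42 nucleolar genes, 34 kept the sign of their ratio in each of the 10 alternatives fixed with the design that gave it a value, and 8 did not. Bop1, Wdr75, Noc2l, Noc3l and Heatr1 went below 0 with the median over probe sets, and Ubtf and Taf1d above 0 with the offset of 50 after matching the medians. Polr1c reversed to 0.29 when probe sets ending in _x_at or _s_at were dropped, and to 0.29 after scaling to the spike-ins. The count at least 1.5-fold higher was 24 with the offset of 50 after matching the medians. It was 5 with the offset and no rescaling and 40 with spike-in scaling. The count at least 1.5-fold lower was 0 under each of these, with median-centred ratios, with the median over probe sets and without probe sets ending in _x_at or _s_at. The count 2-fold apart was 2 with the offset of 50 after matching the medians, 1 with median-centred ratios and 35 with spike-in scaling. The median of the nucleolar genes was 0.66 with the offset of 50 after matching the medians. It was 0.29 with the median over probe sets and 1.26 with spike-in scaling. The median of the other pathway genes was 0.62 with the offset of 50 after matching the medians and 0.30 with the offset and no rescaling. It was 0.34 after quantile normalization, 0.41 with median-centred ratios, 0.25 with the median over probe sets and 1.27 with spike-in scaling. Of all genes 2-fold apart, 31.2% were higher as deposited. The share was 86.2% with the offset of 50 after matching the medians, 51.0% with the offset and no rescaling and 97.8% with spike-in scaling. It was 51.1% after quantile and 52.8% after loess normalization, 49.9% with a stricter signal filter and 43.1% with a common floor. Spike-in scaling adds 1 constant to every log2 ratio, and matching the medians before the offset of 50 raises VEGF signals against wild type, so both lift the ratios of all genes. The cause of the other shifts was not tested. Spike-in scaling and the offset with no rescaling were added after seeing the data. No paired analysis was possible because each genotype had 1 array. The number of arrays limits the precision of every value.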
